A study of Mus musculus with 6 samples.

Results

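Integrins are cell surface receptors made of 1 α and 1 β chain, and the 10 genes described here encode the chains that epithelial cells use to hold on to extracellular matrix: the α chains Itga1, Itga2, Itga3, Itga6 and Itgav, and the β chains Itgb1, Itgb4, Itgb5, Itgb6 and Itgb8. They were taken by gene symbol from a table of 36172 rows, in which each of the 10 has 1 row. The pairing of the chains sets what a cell can bind. The β1 chain pairs with α1 and α2 to bind collagen and with α3 and α6 to bind laminin, while α6 with β4 forms the laminin receptor of hemidesmosomes, the junctions that tie the intermediate filaments of an epithelial cell to its basement membrane. Partners of the αv chain include β5, β6 and β8. Of these receptors, αvβ6 and αvβ8 are known for binding the propeptide of latent TGF-β and releasing the active cytokine.

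RNA was sequenced from organoids, 3-dimensional cultures of epithelial cells, grown from small intestinal tumors of C57BL/6 mice aged 15 to 20 weeks. All mice carried Apc(D716), a truncating Apc allele whose wild-type copy is lost in the tumors, so the controls are Wnt-activated tumor cells too. The 3 genotypes, with 2 libraries each from separately prepared organoids of 2 mice, were p53(+/+), with wild-type Trp53; p53(flox/flox), homozygous for the floxed allele, which is null until recombined; and p53(M/M), in which both Trp53 alleles express the missense protein R270H. In the p53(M/M) mice the floxed allele had been recombined by the intestinal epithelial villin-CreER after weekly tamoxifen. By the study's definition the p53(flox/flox) mice carry villin-CreER as well, and no tamoxifen is described for them, so in their comparison with p53(M/M) the tamoxifen treatment and the Cre activity it brings cannot be told apart from the missense protein. Whether the p53(+/+) mice carried villin-CreER or received tamoxifen is not stated, so the same limit may hold for their comparison with p53(M/M). The comparisons ask which integrin chains differ with the loss of p53 and which with the R270H protein.

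Trp53 RNA followed the labels, at 75.9 and 74.3 RPKM (reads per kilobase of transcript, scaled to the mapped reads of a library) in p53(+/+), 1.73 and 2.48 in p53(flox/flox), and 72.8 and 82.7 in p53(M/M). Depth, which the table does not give, was estimated from the steps between values of short RNA genes as 44.2 to 47.4 M reads in 5 libraries; the estimate for p53(flox/flox) replicate 1 rested on 8 genes and is not used. No deposited value is below 1 RPKM, so 1 is treated as a floor under which nothing is known. All 8 epithelial markers listed (Epcam, Cdh1, Krt8, Krt18, Krt19, Vil1, Cdx2 and Cldn7) were at 40.8 RPKM or more in every library, summing to 2864 to 2920 RPKM in p53(+/+), 4228 to 4557 in p53(flox/flox) and 2327 to 2506 in p53(M/M). The immune markers Ptprc, Csf1r and Cd3e and the endothelial markers Pecam1 and Kdr stood at the floor in all 6 libraries, but Cd68, Cdh5 and Vwf did not. The immune list summed to 13.9 to 14.2 RPKM in p53(+/+), 6.06 and 15.1 in p53(flox/flox) and 6.22 to 6.41 in p53(M/M), and the endothelial list to 17.6 to 19.0, 4 to 6.34 and 4 to 4.04, against floors of 5 and 4. The fibroblast list of 8 genes was at its floor sum of 8 in 3 libraries and at 8.53 and 8.59 in p53(M/M), whereas p53(flox/flox) replicate 2 summed to 20.6, mostly Acta2 at 11.5.

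Of the integrin chains, Itgb1 RNA was the highest in every genotype and Itga6 the next. In p53(+/+) the order of mean RPKM was Itgb1 (129.5), Itga6 (52.8), Itgb4 (34.0), Itga2 (29.8), Itga3 (27.5), Itgav (9.75), Itgb6 (7.71) and Itgb5 (4.28); Itga2 and Itga3 were the only neighbours there whose libraries overlapped. The order in p53(M/M) was Itgb1 (123), Itga6 (66.3), Itga3 (23.3), Itgb5 (16.0), Itgb4 (13.2), Itga2 (12.5), Itgav (9.03) and Itgb6 (4.62), with Itgb4 and Itga2 overlapping, so Itgb5 went from rank 8 to rank 4 and Itgb4 from 3 to 5. In p53(flox/flox) the 6 chains below Itga6 each overlapped the chain above, and Itgb1, at 80.2 and 113 RPKM, overlapped none of them. The plot of RPKM by library shows these levels for all 10 chains.

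**Figure D1:**
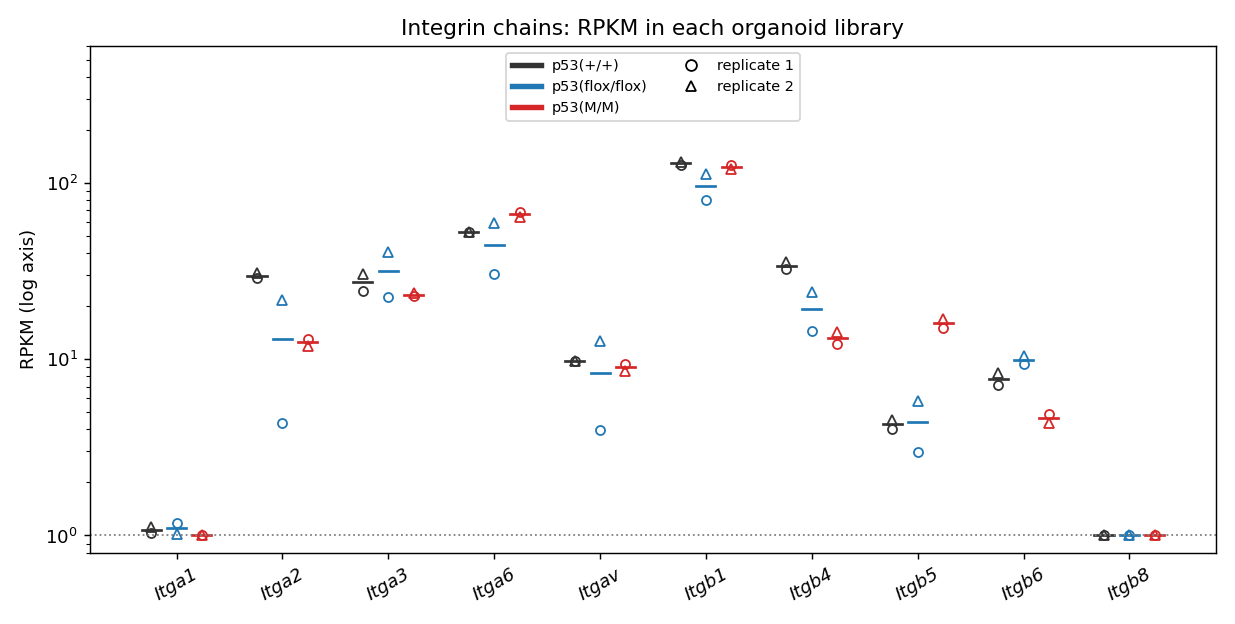
RPKM (log axis) of the 10 integrin chains in each of the 6 libraries; colours are genotypes, circles and triangles are replicates 1 and 2, short bars are genotype means (n = 2) and the dotted line is the floor at 1 RPKM. Itgb5 is high in both p53(M/M) libraries (15.1 and 16.9), Itgb4 and Itga2 are highest in p53(+/+), and the p53(flox/flox) libraries lie far apart for most chains.

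Itga1 and Itgb8 were at or near the floor. Itga1, the collagen-binding α1 chain, was between 1.02 and 1.18 RPKM in the p53(+/+) and p53(flox/flox) libraries and at 1.00 in both p53(M/M) libraries. Itgb8 was at 1.00 in all 6. Because their transcripts are long, up to 10967 nt for Itga1 and 8403 nt for Itgb8, the floor stands for an estimated 485 to 520 reads of Itga1 and 371 to 398 of Itgb8, so it is the floor and not the depth that hides lower levels. The other 8 chains reached 4 RPKM in at least 1 library and were tested with 10042 rows in all by limma on log2(RPKM + 1), with Benjamini-Hochberg adjusted p under 0.05 as the threshold. In that test the 3 genotypes share 1 estimate of the spread; an exact permutation test of 2 against 2 libraries cannot go below p = 0.333. All comparisons with p53(+/+) share the same 2 control libraries.

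The β chains carried all the calls. In p53(M/M) against p53(+/+), 1 of the 8 tested chains was called higher, Itgb5, and 2 were called lower, Itgb4 and Itgb6, where 5.86% and 6.36% of all rows tested were called in those directions. The groups did not overlap for any of the 8 (2 higher, 6 lower), which held for 81.8% of all rows, all 3 called chains had an unadjusted p under 0.05, as 32% of rows did, and the median log2 difference was −0.16 over the 8 chains and 0.03 over all rows. In p53(flox/flox) against p53(+/+), limma called 0 of the 8, where 4.38% of rows were called higher and 6.9% lower; Itgb4 was the 1 chain at an unadjusted p under 0.05, where 34.7% of rows were, and 4 of the 8 (1 higher, 3 lower) did not overlap, against 64.5% of rows. Itgb5 was called higher and Itgb6 lower in p53(M/M) against p53(flox/flox), where 13.6% and 11% of rows were called; these 2 also made up the chains at an unadjusted p under 0.05, as were 42.5% of rows, and 5 of the 8 (3 higher, 2 lower) did not overlap, against 68% of rows. These intervals are drawn in the plot of log2 fold changes.

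**Figure D2:**
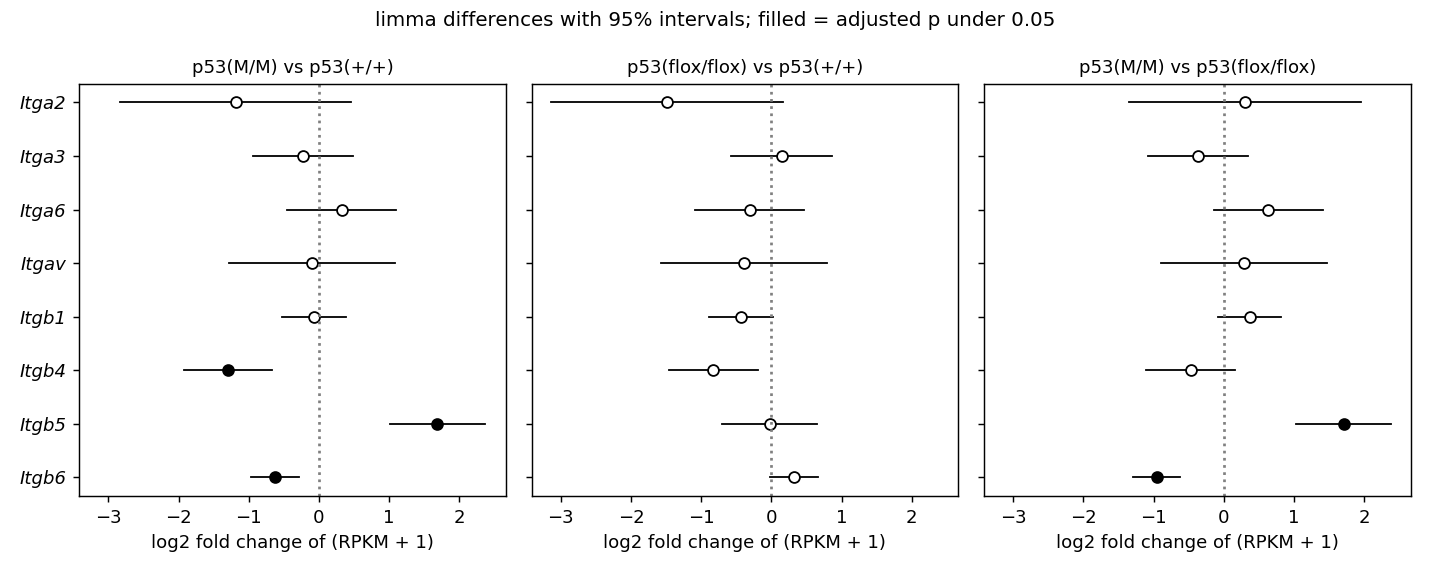
log2 fold change of (RPKM + 1) for the 8 tested integrin chains in the 3 comparisons, with 95% intervals from limma (2 libraries a genotype); filled points have an adjusted p under 0.05. Itgb5 is above 0 by 1.69 and 1.71 in both comparisons with p53(M/M), Itgb6 below 0, and the widest intervals are those of Itga2.

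Itgb5 encodes the β5 chain of αvβ5, a receptor for vitronectin and other RGD-containing proteins (GRCm38, chromosome 16, 33829665 to 33949338, plus strand). Its RPKM was 4.04 and 4.51 in p53(+/+), 2.98 and 5.78 in p53(flox/flox), and 15.1 and 16.9 in p53(M/M). Both p53(M/M) libraries were above the other 4, which overlapped each other. Itgb5 was 3.74-fold higher in p53(M/M) than in p53(+/+), 16.0±1.30 against 4.28±0.331 (mean±s.d., n = 2), a log2 difference of 1.69 (SE 0.27, 95% interval 1.01 to 2.36, limma adjusted p = 0.0229), and 3.66-fold higher than in p53(flox/flox) (1.71, adjusted p = 0.0157). Against p53(+/+), the p53(flox/flox) difference was −0.02, with a 95% interval of −0.70 to 0.66.

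Itgb6 encodes the epithelial β6 chain of αvβ6, the latent TGF-β receptor (chromosome 2, 60598292 to 60722643, minus strand). It was at 7.11 and 8.32 RPKM in p53(+/+), 9.40 and 10.4 in p53(flox/flox), and 4.91 and 4.33 in p53(M/M). The 3 genotypes did not overlap, with p53(flox/flox) on top and p53(M/M) at the bottom. The level in p53(M/M) was 1.67-fold lower than in p53(+/+) (log2 difference −0.63, SE 0.13, 95% interval −0.97 to −0.29, limma adjusted p = 0.0431) and 2.14-fold lower than in p53(flox/flox) (−0.96, adjusted p = 0.0124). The p53(flox/flox) level was 1.28-fold that of p53(+/+) and was not called (0.32, adjusted p = 0.155).

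Itgb4 encodes β4, which pairs only with α6 and has a long cytoplasmic tail that reaches the keratin filaments (chromosome 11, 115974709 to 116008412, plus strand). The p53(+/+) libraries had 32.4 and 35.5 RPKM, the p53(flox/flox) libraries 14.4 and 24.2, and the p53(M/M) libraries 12.2 and 14.3. All 4 libraries without wild-type p53 were below both p53(+/+) libraries. Its p53(M/M) level was 2.56-fold lower, 13.2±1.52 against 34.0±2.18 (log2 difference −1.30, SE 0.25, 95% interval −1.93 to −0.67, limma adjusted p = 0.0353). In p53(flox/flox) it was 1.76-fold lower by the means and not called (−0.83, 95% interval −1.46 to −0.19, adjusted p = 0.0900).

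Itgb1, the common partner of the collagen and laminin α chains (chromosome 8, 128685654 to 128733200, plus strand), was at 127 and 132 RPKM in p53(+/+), 80.2 and 113 in p53(flox/flox), and 127 and 120.1 in p53(M/M). By the means it was 1.05-fold lower in p53(M/M) than in p53(+/+), and the 95% interval of the log2 difference was −0.53 to 0.39. Both p53(flox/flox) libraries were lower than the other 4, without a call against p53(+/+) (−0.44, adjusted p = 0.154).

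None of the 4 tested α chains was called in any comparison. Itga2, the collagen-binding α2 chain (chromosome 13, 114833081 to 114932100, minus strand), was at 28.9 and 30.7 RPKM in p53(+/+), 4.34 and 21.6 in p53(flox/flox), and 13.1 and 12.0 in p53(M/M). Every library without wild-type p53 was below both p53(+/+) libraries, and those of p53(M/M) by 2.38-fold on the means, but the p53(flox/flox) libraries were so far apart that the shared spread gave a 95% interval of −2.84 to 0.46 for p53(M/M) (log2 difference −1.19, SE 0.65, limma adjusted p = 0.277). With only the 4 p53(+/+) and p53(M/M) libraries in the fit the adjusted p for Itga2 was 4.76e-04, and 25.7% of all rows were called lower in that fit. Itga2 lies on chromosome 13, whose 326 tested rows had a median log2 difference of −0.34 in p53(M/M) against p53(+/+), the lowest of the 20 chromosomes compared, while the other chromosomes that hold these genes were between 0.01 and 0.08. By library, 81.9% and 86.5% of the chromosome 13 rows were below the p53(+/+) mean in p53(M/M), against 48.2% and 44.9% of all rows; in p53(flox/flox) it was 58.3% and 56.1%, against 52.3% and 49.98% of all rows. The part of this in the level of Itga2, and of its neighbour Itga1, was not tested.

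Itga6, the α6 chain of the laminin receptors (chromosome 2, 71745616 to 71858416, plus strand), was at 52.9 and 52.6 RPKM in p53(+/+), 30.3 and 59.1 in p53(flox/flox), and 68.6 and 64.1 in p53(M/M). It was 1.26-fold higher in p53(M/M) than in p53(+/+), without overlap and without a call (0.32, adjusted p = 0.519); the fit of these 2 genotypes alone gave an adjusted p of 0.00688. Itga3, the α3 chain of the laminin receptor α3β1 (chromosome 11, 95044474 to 95076801, minus strand), was at 24.5 and 30.5 in p53(+/+), 22.7 and 40.4 in p53(flox/flox), and 22.9 and 23.7 in p53(M/M). The 2 p53(flox/flox) libraries of Itga3 lay on either side of all the others. Itgav, the αv chain (chromosome 2, 83724397 to 83806916, plus strand), was at 9.72 and 9.78 in p53(+/+), 3.95 and 12.7 in p53(flox/flox), and 9.43 and 8.63 in p53(M/M). Its p53(M/M) difference was −0.10, with a 95% interval of −1.28 to 1.08. By the means Itgav was 1.08-fold lower there, while its partners Itgb5 and Itgb6 were called in opposite directions.

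The ratios between partner chains show the same values without any scaling between libraries. Itgb5 over Itgb6 was 0.569 and 0.542 in p53(+/+), 0.317 and 0.556 in p53(flox/flox), and 3.07 and 3.90 in p53(M/M). Of these 2 RNAs, Itgb6 was the more abundant in 4 libraries and Itgb5 in both p53(M/M) libraries. The summed RPKM of Itgb5, Itgb6 and Itgb8, the last at its floor value, was 12.1 and 13.8 in p53(+/+), 13.4 and 17.2 in p53(flox/flox), and 20.99 and 22.3 in p53(M/M). Itga6 over Itgb4 was 1.63 and 1.48, then 2.10 and 2.44, then 5.63 and 4.47, rising in that order of genotypes with no overlap. Of the summed Itga2, Itga3 and Itga6 RPKM, Itga2 made up 27.2% and 27.0% in p53(+/+), 7.58% and 17.8% in p53(flox/flox), and 12.5% and 12.0% in p53(M/M). Each of these p53(M/M) to p53(+/+) differences had the smallest p that the exact two-sided permutation test of 2 against 2 allows, 0.333, which is not below 0.05, and the sums and ratios were not adjusted for their number, 9 quantities in 3 comparisons.

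**Figure D3:**
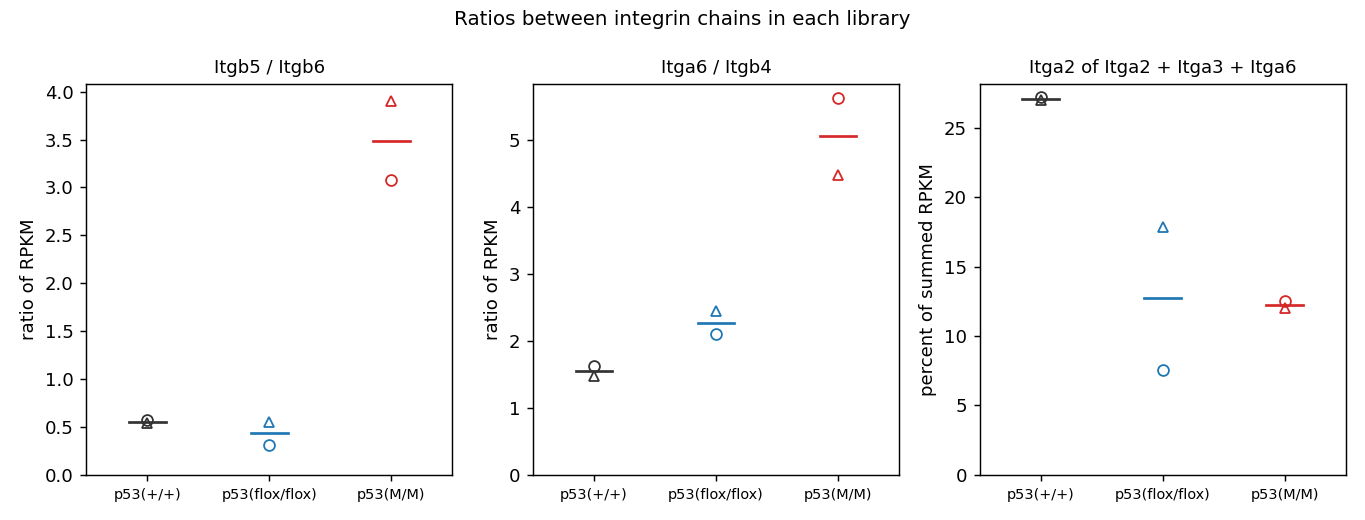
Ratios of RPKM between partner chains (left and middle) and the percent of the summed Itga2, Itga3 and Itga6 RPKM that is Itga2 (right) in each library; circles and triangles are replicates 1 and 2 and bars are genotype means (n = 2). Itgb5 over Itgb6 is below 1 in 4 libraries and 3.07 and 3.90 in p53(M/M), and Itga6 over Itgb4 is highest in p53(M/M).

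The 250 bases before the annotated start of Itgb5 and Itgb6 are shown because these 2 partners of αv were called in opposite directions in both comparisons with p53(M/M). The sequences are RefSeq's (GRCm38.p6), 5′ to 3′ on the gene's strand, with the GC box GGGCGG, on either strand, in capitals.
Itgb5 (chr16:33829415-33829664, plus strand): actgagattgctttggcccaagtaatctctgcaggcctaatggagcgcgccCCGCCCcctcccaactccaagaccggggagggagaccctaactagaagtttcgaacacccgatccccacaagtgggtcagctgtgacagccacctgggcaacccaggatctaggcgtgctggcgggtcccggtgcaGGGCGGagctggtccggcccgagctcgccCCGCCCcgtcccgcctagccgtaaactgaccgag
Itgb6 (chr2:60722604-60722853, minus strand): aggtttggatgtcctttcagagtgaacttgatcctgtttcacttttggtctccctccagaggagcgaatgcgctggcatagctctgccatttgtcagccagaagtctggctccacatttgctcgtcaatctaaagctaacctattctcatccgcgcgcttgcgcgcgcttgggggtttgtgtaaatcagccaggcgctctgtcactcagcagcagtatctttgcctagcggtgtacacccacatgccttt
The Itgb5 stretch holds 3 GC boxes and the Itgb6 stretch 0, while 32.7% of 32851 such stretches upstream of mouse genes hold at least 1. The AP-1 motif TGANTCA, in 6.75% of the stretches, and the TCF/LEF motif CTTTGAT, in 3.21%, on either strand, are in neither. The p53 half-site RRRCWWGYYY (R is A or G, W is A or T, Y is C or T), in 7.13% of the stretches, is also in neither. Among chains that were not called, stretches of Itga3 hold 1 and 3 GC boxes, that of Itgb1 1, and those of Itga2 and Itgav 0. GC content was 65.2% for Itgb5 and 52.0% for Itgb6. Itgb6 has another annotated start, not shown, whose upstream stretch also holds 0 GC boxes. The table of upstream stretches matched 8 of the 10 members.

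The p53(flox/flox) libraries differed from each other in a way that touches every integrin value of that genotype. Replicate 1 was lower than replicate 2 for 8 of the 8 tested chains, by −2.08 on the log2(RPKM + 1) scale for Itga2, −1.47 for Itgav, −0.94 for Itga6, −0.80 for Itga3, −0.77 for Itgb5, −0.71 for Itgb4, −0.49 for Itgb1 and −0.13 for Itgb6; over all rows tested, 49.0% were lower. The difference between these libraries followed transcript length, from a median of 0.55 for 400 genes of up to 1 kb to −0.65 for 798 genes over 7 kb, whereas the same medians ran from 0.05 to −0.02 in p53(+/+) and from −0.16 to 0.08 in p53(M/M). Integrin transcripts are long, from 3282 nt (Itgb5) to 7108 nt (Itga2) among the tested chains. Genes within 10% of their length had medians of −0.53 for Itga2 and Itgav, −0.39 for Itgb4, −0.22 for Itga3, −0.21 for Itgb6, −0.13 for Itga6, −0.02 for Itgb1 and 0.03 for Itgb5, so 7 of the 8 chains lay below the median of genes of their length and Itgb6 above it. Of the genes of like length, 0.928% (Itga2) to 22.0% (Itgb4) had a lower difference than these 7 chains, and 59.7% a lower one than Itgb6. Subtracting this trend, an adjustment chosen after the data were seen, left the 3 calls in p53(M/M) against p53(+/+) as they were (adjusted p = 0.0173 for Itgb5, 0.00742 for Itgb4 and 0.0185 for Itgb6). It added calls for p53(flox/flox) against p53(+/+), with Itgb6 higher (0.47, adjusted p = 0.0479) and Itgb4 lower (−0.59, adjusted p = 0.0468), and for Itgb4 lower in p53(M/M) against p53(flox/flox) (−0.84, adjusted p = 0.0167). With this adjustment 9.51% of all rows were called higher and 11.1% lower in p53(M/M) against p53(+/+), 8.78% and 11.8% in p53(flox/flox) against p53(+/+), and 14.1% lower in p53(M/M) against p53(flox/flox).

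**Figure D4:**
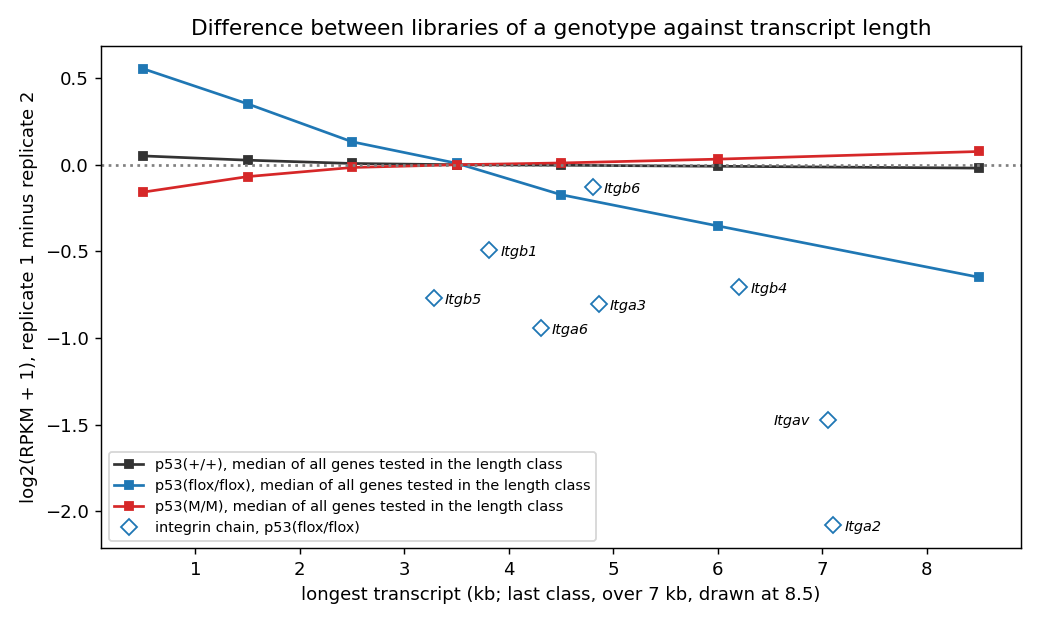
Difference in log2(RPKM + 1) between replicates 1 and 2 of each genotype against the longest annotated transcript (kb); squares joined by lines are medians of all tested genes in a length class, and diamonds are the 8 integrin chains in p53(flox/flox). The p53(flox/flox) line falls from 0.55 to −0.65, the other 2 lines stay between −0.16 and 0.08, and all chains but Itgb6 lie below the p53(flox/flox) line.

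The calls also depended on which libraries entered the fit. Without p53(flox/flox) replicate 1, Itga3, Itgav and Itgb5 were called higher and Itga2 and Itgb4 lower in p53(flox/flox) than in p53(+/+); without replicate 2, 6 chains were called lower (Itga2, Itga6, Itgav, Itgb1, Itgb4 and Itgb5) and 0 higher. Itga2 and Itgb4 were the 2 chains called lower with either library, at −0.45 and −2.53 for Itga2 and −0.47 and −1.18 for Itgb4; the single library left is then assumed to vary like the others. The first of these fits called 19.8% of all rows higher and 22.1% lower, and the other 32.2% and 37.1%. Without any 1 of the p53(+/+) or p53(M/M) libraries, no integrin chain was called in p53(M/M) against p53(+/+), when at most 0.720% of all rows were called higher and 0.390% lower. The log2 difference then stayed between 1.61 and 1.77 for Itgb5 (adjusted p up to 0.200), −1.41 and −1.19 for Itgb4 (up to 0.266) and −0.73 and −0.53 for Itgb6 (up to 0.340). Against p53(flox/flox), the calls of Itgb5 higher and Itgb6 lower in p53(M/M) were kept without either p53(flox/flox) library and lost without any 1 of the other 4 (adjusted p up to 0.141 for Itgb5 and 0.117 for Itgb6). A fit of those 2 genotypes alone gave adjusted p = 0.0687 for Itgb5 and 0.0601 for Itgb6 in that comparison, with 2.56% of all rows called higher and 1.20% lower.

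Most other integrin chains were at the floor. Of 17 further α and β chains in the table, 14 were at the floor in all 6 libraries, among them the leukocyte chains Itgb2, Itgam, Itgax, Itgae, Itga4 and Itgb7. The 2 that were tested were Itga5, the fibronectin-binding α5 chain, and Itgal, the α chain of the lymphocyte integrin LFA-1, and neither was called in any comparison. Itgal was at 7.36 and 7.80 RPKM in p53(+/+), 4.73 and 3.27 in p53(flox/flox), and 3.76 and 4.26 in p53(M/M), with both genotypes below p53(+/+) without overlap (−0.79, adjusted p = 0.0513 in p53(flox/flox), and −0.78, adjusted p = 0.0520 in p53(M/M)). Its obligate partner Itgb2 was at the floor. Itga5 was at 6.58 and 8.06, then 1.00 and 5.49, then 3.71 and 2.96, also lower in the mutant libraries and not called (adjusted p = 0.186 and 0.304). With only the p53(M/M) and p53(+/+) libraries in the fit, where 25.7% of all rows were called lower, both Itgal (adjusted p = 0.00205) and Itga5 (0.00444) were called lower in p53(M/M), and Itgal also reached 0.0498 with median-of-ratios scaling. Itga7, the laminin-binding α7 chain, did not reach 4 RPKM, at 1.74 and 1.59, 1.00 and 2.16, and 3.59 and 3.86.

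Of 26 genes for proteins that bind integrin tails inside the cell or act in adhesions, such as talins, kindlins and filamin, 22 were tested. Limma called 0 of them in p53(M/M) against p53(+/+), where 5.86% of all rows were called higher and 6.36% lower. Of the 22, 5 had an unadjusted p under 0.05, as 32% of all rows did. The median log2 difference was 0.03, the same as over all rows. With only these 2 genotypes in the fit 6 were called higher and 6 lower, where 31.2% and 25.7% of all rows were. In p53(flox/flox) against p53(+/+) 1 was called higher and 0 lower, where 4.38% and 6.9% of all rows were. This was Ilk, integrin-linked kinase, a scaffold on β1 tails. Its RPKM was 36.6 and 33.7 in p53(+/+), 68.7 and 51.9 in p53(flox/flox), and 41.8 and 42.1 in p53(M/M). Both p53(flox/flox) libraries were above the other 4, and Ilk was 1.72-fold the p53(+/+) level (0.75, adjusted p = 0.0420). Of the 22, in p53(M/M) against p53(flox/flox), 1 was called higher and 3 lower, where 13.6% and 11% of all rows were; without p53(flox/flox) replicate 1 it was 2 and 11, where 29.6% and 24.4% of rows were.

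Of 6 hemidesmosome partners of α6β4, 3 were tested, Plec, Cd151 and Krt14, and limma called 0 of them in any comparison. In the 3 comparisons, in the order above, 5.86%, 4.38% and 13.6% of all rows were called higher and 6.36%, 6.9% and 11% lower. At an unadjusted p under 0.05 were 0, 1 and 0 of the 3 partners, where 32%, 34.7% and 42.5% of all rows were. With only the p53(M/M) and p53(+/+) libraries in the fit, 1 partner was called higher and 1 lower. In that fit 31.2% and 25.7% of all rows were called in those directions. Cd151, a tetraspanin bound to α3 and α6 integrins, had the highest mean, at 39.3 and 38.6 RPKM in p53(+/+), 59.9 and 34.1 in p53(flox/flox), and 38.1 and 38.2 in p53(M/M). Plec was at 7.73 and 7.67 RPKM in p53(+/+), 3.40 and 11.8 in p53(flox/flox), and 3.84 and 4.76 in p53(M/M). By the means it was 1.79-fold lower in p53(M/M) than in p53(+/+), without overlap (−0.72, limma adjusted p = 0.377). Krt14 was higher in p53(M/M) without overlap, at 1.33 and 1.52 against 1.00 and 1.05. Dst, which was not tested, was at 1.90 and 2.47 in p53(+/+) and at the floor in both p53(M/M) libraries. Col17a1, the transmembrane collagen of the stratified hemidesmosome, and Krt5 were at the floor in every library.

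Among 22 matrix ligand genes, 12 were tested. In p53(M/M) against p53(+/+), 0 were called higher and 2 lower, where 5.86% and 6.36% of all rows were. These 2 were the basement membrane collagen IV chains Col4a1 and Col4a2, neighbouring genes that make 1 collagen trimer. Col4a1 was at 13.9 and 12.9 RPKM in p53(+/+), 17.2 and 22.1 in p53(flox/flox), and 1.27 and 1.66 in p53(M/M), and Col4a2 at 8.61 and 9.09, 14.1 and 16.9, and 1.09 and 1.58. Both p53(M/M) libraries were close to the floor for both chains, 9.18-fold lower than p53(+/+) for Col4a1 (−2.55, SE 0.16, limma adjusted p = 0.00367) and 6.63-fold lower for Col4a2 (−2.08, SE 0.16, adjusted p = 0.00422). Without p53(+/+) replicate 1, p53(+/+) replicate 2 or p53(M/M) replicate 1 neither was called (adjusted p up to 0.0735 and 0.0780). In p53(flox/flox), Col4a2 was called higher than in p53(+/+) (1.75-fold, 0.74, adjusted p = 0.0479) and Col4a1 was not (1.46-fold, 0.51, adjusted p = 0.101). Col4a2 was the 1 ligand of the 12 called higher there, where 4.38% of all rows were.

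Lamb1 and Mfge8 were the ligands called lower in p53(flox/flox) than in p53(+/+), 2 of the 12 tested, where 6.9% of all rows were. Lamb1, the laminin β1 chain, was at 4.77 and 5.11 RPKM in p53(+/+), 1.00 and 2.17 in p53(flox/flox), and 5.54 and 5.17 in p53(M/M); with 1 library at the floor it was at least 3.12-fold lower (−1.24, adjusted p = 0.0374). Mfge8, a secreted protein whose RGD motif binds αvβ5, was at 60.1 and 58.3 in p53(+/+), 20.3 and 30.5 in p53(flox/flox), and 103 and 119 in p53(M/M). It was 2.33-fold lower in p53(flox/flox) (−1.22, adjusted p = 0.0298) and 4.37-fold higher in p53(M/M) than in p53(flox/flox) (2.11, adjusted p = 0.00527), while the 1.87-fold higher level in p53(M/M) than in p53(+/+) was not called (0.89, adjusted p = 0.0515; 0.00129 with only these 2 genotypes in the fit). All 3 genotypes were apart for Mfge8, and p53(M/M), where Itgb5 was highest, had the highest values. Vtn, which encodes the αvβ5 ligand vitronectin, was at the floor in all 6 libraries.

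Of 8 genes for latent TGF-β and the proteins that store or present it, 7 were matched and 3 tested, Tgfb1, Tgfb2 and Tgfb3. Tgfb2 was at 3.80 and 4.02 RPKM in p53(+/+), at the floor in both p53(flox/flox) libraries, and at 10.95 and 9.07 in p53(M/M). It was 2.56-fold higher in p53(M/M) than in p53(+/+) (1.16, SE 0.14, limma adjusted p = 0.0122) and at least 3.91-fold lower in p53(flox/flox) (−1.30 on the log2 scale with the floor value, adjusted p = 0.0132). Against p53(flox/flox), the p53(M/M) level was at least 10.01-fold higher (2.46, adjusted p = 0.00200). Without any 1 of the p53(+/+) or p53(M/M) libraries the Tgfb2 call in p53(M/M) against p53(+/+) was lost (adjusted p up to 0.152). The propeptides with the RGD motif that αvβ6 binds are those of Tgfb1 and Tgfb3. Tgfb1 was at 1.97 and 2.23, 1.29 and 4.51, and 1.25 and 1.27, and was not called (adjusted p = 0.509 in p53(M/M) and 0.755 in p53(flox/flox)). Tgfb3 was at 1.19 and 1.64, 1.15 and 6.61, and 4.37 and 3.76, also not called (adjusted p = 0.277 and 0.392).

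The calls in p53(flox/flox) against p53(+/+) of Ilk, Col4a2, Lamb1, Mfge8 and Tgfb2 were lost with only those 2 genotypes in the fit (adjusted p = 0.139, 0.120, 0.129, 0.117 and 0.0519), with weights for each genotype (0.116, 0.231, 0.0869, 0.0608 and 0.0869), and without any 1 of the p53(+/+) or p53(M/M) libraries (up to 0.320, 0.314, 0.289, 0.259 and 0.195). With only those 2 genotypes, 0.0896% of all rows were called higher and 0.378% lower.

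**Figure D5:**
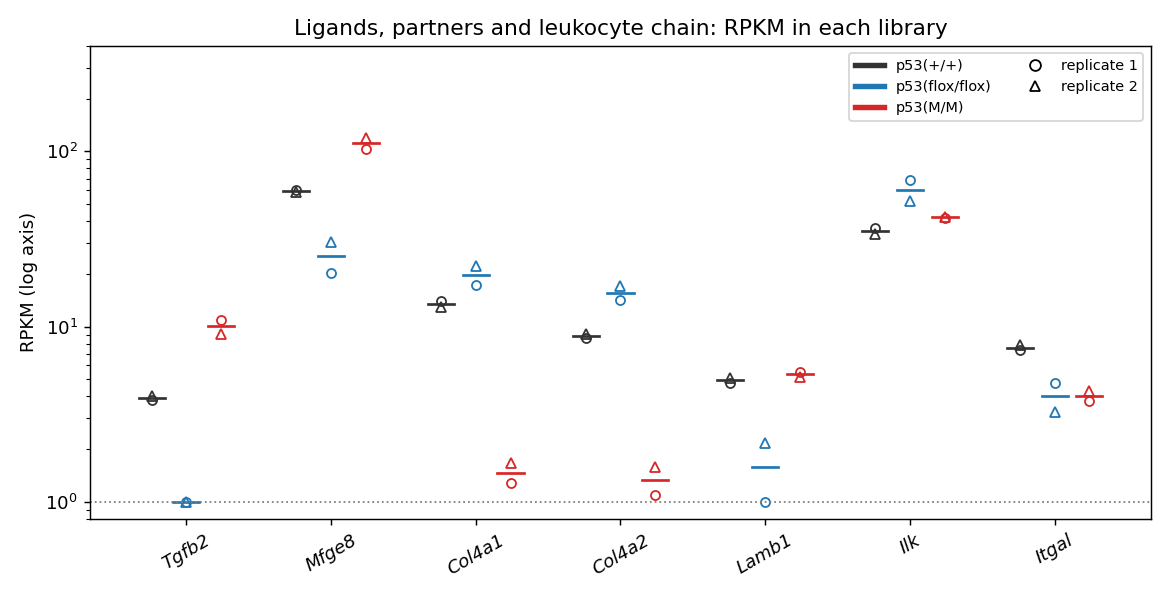
RPKM (log axis) of ligands and partners of the integrin chains and of Itgal in each library; colours are genotypes, circles and triangles are replicates 1 and 2, bars are genotype means (n = 2) and the dotted line is the floor. Col4a1 and Col4a2 are near the floor in p53(M/M), and Tgfb2 is at the floor in p53(flox/flox) and highest in p53(M/M).

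Markers of other cells moved with some of these levels. The endothelial list sum given above was highest in both p53(+/+) libraries, as were Itgb4, Itga2, Itga5 and Itgal, and the immune list sum was high in p53(+/+) and in p53(flox/flox) replicate 2; both sums were near their floors in p53(M/M) and in p53(flox/flox) replicate 1. The fibroblast list was highest in p53(flox/flox) replicate 2, the library with the higher value of all 8 tested chains in that genotype and with 75.2 RPKM of Spp1, an RGD ligand of αv integrins, against 1.00 in replicate 1. The part of these cells in the integrin values was not tested, and in RNA of whole cultures fewer cells of a type and less RNA per cell cannot be told apart.

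The rows whose pattern over the 6 libraries was most like that of Itgb5, by the root-mean-square difference of centred log2(RPKM + 1), were Pik3ap1 (0.113), C1qtnf6 (0.116) and H2-Q5 (0.119), all with p53(M/M) means between 6.22 and 6.54 RPKM and the other means at 1.73 or less. For Itgb4 they were Lif (0.0877), Ckmt1 (0.118) and Prom1 (0.119), each falling from p53(+/+) through p53(flox/flox) to p53(M/M), Lif to the floor. For Itga2 they were Wdfy1 (0.0876), Sox13 (0.138) and Tc2n (0.171), and none of these lies on chromosome 13. These are descriptions over 6 libraries, with no test.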

How the data were processed

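Poly(A) RNA of 6 organoid libraries (TruSeq Stranded mRNA, Illumina HiSeq) was mapped by the authors to mm10, and they calculated the deposited RPKM values with StrandNGS; its version, annotation, read filters and floor at 1 RPKM are not given in the sources used here, the floor being inferred from the values. The deposited table holds 36172 rows and no read counts. Rows that reached 4 RPKM in any library (10042) were compared as log2(RPKM + 1) with limma 3.58.1 (R 4.3.3; lmFit, contrasts, eBayes with trend) over all 6 libraries without a block, two-sided, with Benjamini-Hochberg adjustment over these rows at 0.05. A log2 difference on this scale understates the change of low genes; folds are ratios of mean RPKM, and against a floor they are lower bounds. Python 3.11.15 with pandas 2.3.3, scipy 1.17.1 and matplotlib 3.10.9 made the rest. Positions and the longest transcript of a gene come from GENCODE M21 on GRCm38. Groups and replicate numbers come from the sample titles. The members and lists were chosen with earlier results of these data known, so list counts are descriptions.

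Every member was named. From each list the rows called in p53(M/M) or p53(flox/flox) against p53(+/+) were named, at most 6, or else the row with the highest mean. Other names, among them Itga5, Itga7, Vtn and Spp1, fall outside this rule and were given with their values known. Alternative settings changed, 1 at a time, the pseudocount (0.1 or none), the filter (1 RPKM, or 4 RPKM in both libraries of a genotype), the scaling (median of ratios, upper quartile), the block, the genotypes in the fit, the weights and the trend, and each library was left out in turn. The length adjustment, which subtracts from each library a running median of 501 genes ordered by length, and a block with exchanged numbers were added after the data were seen. Some listed genes are not reported here. The code was tested on simulated data.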

Additional observations from a re-analysis of the deposited data

How the results depend on the processing

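The shared spread and the p53(flox/flox) libraries set most of the limits. Within genotypes, the median s.d. over rows (log2 scale) was 0.0463 in p53(+/+), 0.0621 in p53(M/M) and 0.247 in p53(flox/flox). Pseudocounts, filters, scalings and the prior trend left all 6 counts of called chains as reported. Each member difference was also counted once under each of 7 of the settings other than leaving out a library. Of these 168, 155 kept direction and side of the threshold. With a library left out, 96 of 144 did. In p53(M/M) against p53(+/+), 1 chain was called higher and 2 lower. With only those genotypes in the fit it was 2 and 3, where 31.2% and 25.7% of all rows were. With weights for each genotype it was 2 and 3, where 31.9% and 27.8% of all rows were. Itga6 was added higher and Itga2 lower in both. In p53(flox/flox) against p53(+/+), 0 were called higher and 0 lower. With the length adjustment it was 1 and 1, where 8.78% and 11.8% of all rows were. In p53(M/M) against p53(flox/flox), 1 was called higher and 1 lower. With only those genotypes it was 0 and 0, where 2.56% and 1.20% of all rows were. With weights it was 1 and 0, where 3.75% and 1.56% of all rows were. With the length adjustment 2 were called lower, where 14.1% of all rows were. The counts in all 3 comparisons also changed when a library was left out. The cause of these changes was not tested, and fits without a library also rest on fewer libraries.

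The sample titles give replicate numbers but state no pairing across genotypes, so no block was used. The correlation of same-numbered deviations was −0.29 for p53(M/M) and p53(+/+), 0.12 for p53(flox/flox) and p53(+/+), and −0.20 for p53(M/M) and p53(flox/flox). With 2 libraries a genotype these values cannot show whether same-numbered libraries share a preparation. With the replicate block 1 chain was called lower in p53(M/M) against p53(+/+) in place of 2 (Itgb6 adjusted p = 0.0970), and the other 5 counts did not change; the calls of Ilk, Lamb1, Mfge8 and Col4a2 in p53(flox/flox) against p53(+/+) were lost (adjusted p = 0.0728, 0.0700, 0.0527 and 0.0721). With the p53(M/M) numbers exchanged all 6 counts were as reported.

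Some directions turned. With the length adjustment the p53(M/M) to p53(flox/flox) differences of Itga2 and Itgav were −0.10 and −0.10. With a library left out, the p53(flox/flox) to p53(+/+) difference ran from −0.26 to 0.55 for Itga3, −0.78 to 0.16 for Itga6, −1.12 to 0.35 for Itgav and −0.41 to 0.36 for Itgb5, and the p53(M/M) to p53(flox/flox) difference from −0.74 to 1.34 for Itga2, −0.77 to 0.036 for Itga3 and −0.45 to 1.02 for Itgav.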
